A study of Mus musculus with 24 samples.

Results

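Slc22 genes encode membrane transporters that carry organic anions, organic cations, zwitterions and carnitine, and 9 mouse members of the family, Slc22a3, Slc22a5, Slc22a7, Slc22a18, Slc22a23, Slc22a26, Slc22a27, Slc22a28 and Slc22a30, are described here. They were found by gene name, or by the current symbol of the accession a probe carries, on an Agilent 4x44K array that yielded 19037 tested genes in mouse liver RNA. Of the 9 genes, 8 had a probe (11 probes in all), and each of these 8 was well above background on at least 4 of the 24 arrays. Slc22a27 was not measured here. The label under which the genes were grouped sets Slc22a26 to Slc22a30 apart as sexually dimorphic liver genes against widely expressed members. In treated wild-type mice this held for Slc22a26, whereas Slc22a28 and Slc22a30 did not pass the test between sexes.

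The 24 samples fell into 6 groups of 4, each either wild type (WT) or double knockout (dKO) for Foxa1 and Foxa2, the forkhead transcription factors that open and regulate hepatocyte genes. The groups were treated WT males, treated WT females, untreated WT females, untreated dKO females, treated dKO males and treated dKO females, and the series title asks whether both factors are needed for the sex difference in liver cancer. Treated mice of either sex and genotype had received the carcinogen diethylnitrosamine (DEN) at 20 mg/kg when 14 to 15 days old, and then 8 doses of the tumour promoter TCPOBOP at 3 mg/kg. TCPOBOP activates CAR, the nuclear receptor that induces drug metabolism and drives hepatocyte growth in mice. Untreated males were not among the samples, and the sources used here give neither age at collection nor the Cre driver nor the deleted part of each Foxa gene. The labels call the tissue liver tumour in every sample, untreated ones included. They do not say whether the replicates of a group are different mice, so each p-value reflects the spread over these samples, which may be technical.

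Many Slc22 proteins sit in the plasma membrane of liver and kidney epithelial cells and take up drugs, toxins, bile constituents, hormone conjugates and metabolites from blood. In rodents many genes of the organic anion branch lie in a tandem cluster. Several of these are expressed at different levels in male and female liver under the control of the sex-specific pattern of growth hormone. By gene order in RefSeq the Slc22a genes on mouse chromosome 19, which hold this cluster, run Slc22a20, Slc22a12, Slc22a19, Slc22a26, Slc22a27, Slc22a28, Slc22a29, Slc22a30, Slc22a8 and Slc22a6. The other members described here lie on chromosomes 7, 11, 13 and 17.

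Because Slc22a28 and Slc22a30 are close copies, the probe sequences decide what their signals stand for. Both 60-base probes map to the minus strand of chromosome 19 (build mm9), for Slc22a28 at chr19:8136836-8136895 and for Slc22a30 at chr19:8411250-8411309, and are shown 5′ to 3′. Capitals mark the 37 bases that the Slc22a28 probe shares, on the opposite strand, with the array's probe TC1700814 at chr19:8410226-8410285.
Slc22a28 probe: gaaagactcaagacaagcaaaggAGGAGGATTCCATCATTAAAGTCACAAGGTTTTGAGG
Slc22a30 probe: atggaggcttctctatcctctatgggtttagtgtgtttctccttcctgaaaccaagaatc
The 2 probes share no run of 20 or more bases with each other, but the array's annotation lists the accession of each gene under the probe of the other. Signal from the 2 transcripts can therefore not be told apart with certainty.

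The start regions show how alike these 2 genes are and how far Slc22a26 stands from them. The sequences are the 250 bases before the start site on the minus strand, from RefSeq on build GRCm38.p6, for Slc22a26 at chr19:7802668-7802917, for Slc22a28 at chr19:8131983-8132232 and for Slc22a30 at chr19:8405106-8405355. In Slc22a26 capitals mark a forkhead match (GCAAATA) and a STAT5 match (TTCAGGGAA). In Slc22a28 and Slc22a30 they mark the bases that differ between the 2 genes, including the 6 leading bases of the Slc22a28 stretch that lie outside the Slc22a30 stretch.
Slc22a26: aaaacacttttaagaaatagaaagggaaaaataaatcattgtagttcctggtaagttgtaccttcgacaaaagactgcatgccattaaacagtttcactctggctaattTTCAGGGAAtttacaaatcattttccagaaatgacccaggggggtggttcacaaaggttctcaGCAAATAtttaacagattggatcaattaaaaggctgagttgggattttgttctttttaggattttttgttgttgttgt
Slc22a28: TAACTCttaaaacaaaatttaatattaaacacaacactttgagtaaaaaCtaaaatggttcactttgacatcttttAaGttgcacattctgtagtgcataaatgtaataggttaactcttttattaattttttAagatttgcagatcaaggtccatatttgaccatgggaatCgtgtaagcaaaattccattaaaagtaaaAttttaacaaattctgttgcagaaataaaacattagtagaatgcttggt
Slc22a30: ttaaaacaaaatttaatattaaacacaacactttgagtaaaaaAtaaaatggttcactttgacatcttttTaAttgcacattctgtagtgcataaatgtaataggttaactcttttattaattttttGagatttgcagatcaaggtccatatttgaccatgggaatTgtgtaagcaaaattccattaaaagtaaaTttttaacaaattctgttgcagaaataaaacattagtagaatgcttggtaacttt
Over the 300-base windows that run from 250 bases before to 50 bases after the start, Slc22a28 and Slc22a30 were identical in 288 of 306 aligned columns (94.1%), with 6 mismatches and 12 gap columns. Slc22a29, which lies between them, shared 68% of columns with Slc22a28 and 68.1% with Slc22a30, and Slc22a26 shared 53.3% and 54.9%. The same windows were searched on both strands for forkhead (TGTTTAC or TGTTTGC or TATTTAC or TATTTGC), STAT5 (TTCNNNGAA), HNF4 (CAAAGTCCA) and HNF1 motifs. Of all 32851 windows, 13.5% held the forkhead, 8.3% the STAT5, 0.475% the HNF4 and 0.00913% the HNF1 letters. Slc22a26 held 1 forkhead match at -78 and 1 STAT5 match at -141 relative to the start, and no other of the 8 members with a window held any of these letters. A match describes these letters and not a bound site. Slc22a7 was not matched in the sequence table.

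Expression values below are log2 of an array's processed signal divided by that array's 75th percentile, so a difference of 1 is a doubling, and a gene was called where limma's adjusted p was under 0.05. The share of spots called well above background was 50.4% to 68.42% per array, with group means of 59.45% to 62.13% and, in treated dKO females, 67.22%. Foxa1 was well above background on 4 of 4 arrays in each WT group and 0 of 4 in each dKO group, and the log2 difference in Foxa2 was -10.07 to -7.99 over the 3 dKO to WT comparisons. The Y-linked genes (4 of 4 tested) summed to 2.55 to 3.17 in males and at most -3.95 in females. Xist was 4.57 to 5.45 in females, -7.35 to -6.08 in WT males and -1.28, -4.70, -6.28 and -2.73 in dKO males. All 11 hepatocyte markers were above background on every array. Their summed level was 10.44 to 10.99 in 5 groups and 10.29, 9.26, 10.55 and 9.93 in treated dKO females. Bile duct markers summed to 3.06 to 4.51 in WT groups, 4.04 to 4.67 in untreated dKO females, 5.96 to 6.31 in treated dKO males and 6.23 to 7.95 in treated dKO females. Their part, and that of the other cell types below, in the results on the transporters was not tested.

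Slc22a26, an organic anion transporter gene of the chromosome 19 cluster, was low in treated WT males and high on nearly all other arrays. Its probe lies at chr19:7856477-7856536. The 4 treated WT males measured 0.52, 0.36, 1.02 and 0.73 on the log2 scale, and the 4 treated WT females 4.52, 4.44, 3.38 and 4.14. The lowest female thus exceeded the highest male. The female mean of 4.12 ± 0.52 (SD, n = 4) was higher than the male mean of 0.66 ± 0.28 (SD, n = 4) by 3.46 ± 0.60 (SE), which is 11-fold (limma, adjusted p = 0.00154).

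Treated dKO males did not have the low Slc22a26 level of WT males. They measured 3.35, 3.31, 3.49 and 3.47, all above the 4 WT males, with a mean of 3.41 ± 0.09 (SD, n = 4). The gene was higher in dKO than WT males by 2.75 ± 0.60 (SE), which is 6.72-fold (limma, adjusted p = 0.00196). Within the 3 slides that held both groups it was 2.34 to 2.95, and with array position as a covariate, which follows genotype closely here, it was 3.23 and no longer called (adjusted p = 0.361). The dKO males with Xist at -1.28, -4.70, -6.28 and -2.73 had Slc22a26 values of 3.35, 3.31, 3.49 and 3.47 in that order. Any link between Xist and Slc22a26 levels was not tested. The authors' deposited table gave signed folds of 7.23 for dKO over WT males and 11.266 for WT females over males.

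In females, Slc22a26 was at a like level in 3 of the 4 groups. The untreated WT females measured 3.48, 4.27, 3.02 and 3.67, and untreated dKO females 3.37, 4.16, 3.50 and 3.65. These groups overlapped, with a difference of 0.06 ± 0.60 (SE, limma adjusted p = 0.967). Treated dKO females measured 4.02, -0.04, 4.25 and 3.38, so 3 arrays lay within the range of the other females and replicate 2 lay below every WT male. The genotype difference in treated females was -1.22 ± 0.60 (SE, limma adjusted p = 0.134). It was -0.23 (adjusted p = 0.628) without replicate 2 and -1.67 (adjusted p = 0.0363) without replicate 3.

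The sex difference in Slc22a26 was not called in treated dKO mice, at -0.50 ± 0.60 (SE, female minus male, limma adjusted p = 0.585), and was 0.48 (adjusted p = 0.32) without treated dKO female 2. The interaction of sex and genotype was -3.96 ± 0.85 (SE, limma adjusted p = 0.00596). Without that array it was -2.98 (adjusted p = 0.000432). From lowest to highest, the group means ran treated WT males, treated dKO females (2.90), treated dKO males, untreated WT females (3.61), untreated dKO females (3.67) and treated WT females. Neighbours in this order overlapped at every step, and treated WT males and treated dKO females did so through treated dKO female 2, which lay below the WT males.

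**Figure D1:**
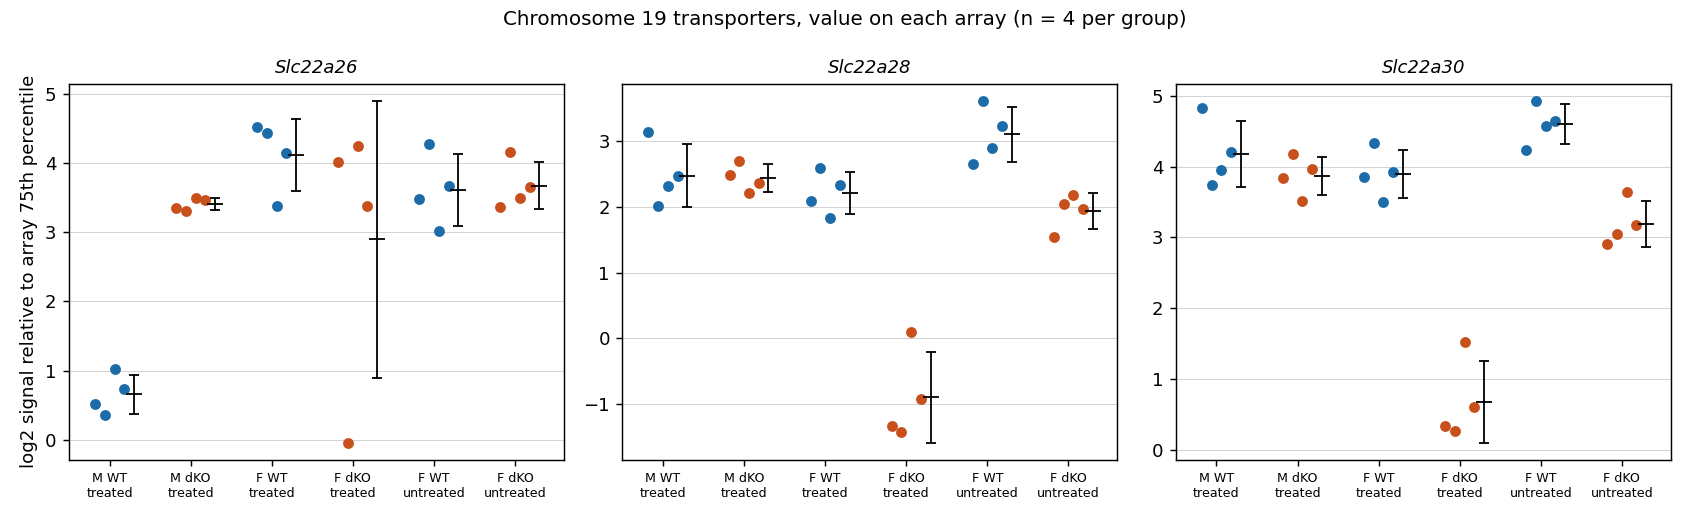
Slc22a26, Slc22a28 and Slc22a30 on each of the 24 arrays, as log2 signal over the array's 75th percentile, by group. Points are arrays (blue for wild type, orange for dKO) and bars give the mean and SD of 4 arrays. Treated WT males stand lowest for Slc22a26 apart from 1 treated dKO female, and treated dKO females stand lowest for Slc22a28 and Slc22a30.

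Slc22a28, another organic anion transporter gene of the cluster, had a different pattern, in which treated dKO females stood apart. They measured -1.33, -1.42, 0.09 and -0.93, against 2.09, 2.59, 1.83 and 2.34 in treated WT females. All 4 dKO values lay below all 4 WT values. The difference was -3.11 ± 0.29 (SE), which is 8.63-fold lower (limma, adjusted p = 5.4e-07), from a mean of 2.21 ± 0.32 to -0.90 ± 0.69 (SD, n = 4 each).

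Slc22a30 did the same. Treated dKO females measured 0.33, 0.27, 1.52 and 0.60, against 3.85, 4.33, 3.50 and 3.92 in treated WT females, again without overlap. It was lower by 3.22 on the log2 scale with an SE of 0.27, which is 9.34-fold (limma, adjusted p = 1.27e-07). The authors' deposited table gave signed folds of -8.929 for Slc22a28 and -9.434 for Slc22a30. Within the 2 slides that held both groups the differences were -3.25 to -3.02 and -3.25 to -3.24. These set treated dKO females 2 and 4 against WT females 3 and 1, array against array. The 2 dKO arrays were those with the lowest summed hepatocyte levels (9.26 and 9.93). Treated dKO females all lay at slide position 4 and treated WT arrays at positions 1 and 2, and with position as a covariate the Slc22a28 call was lost (-3.32, adjusted p = 0.0644) and the Slc22a30 call was kept (adjusted p = 0.0475).

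In treated males no genotype difference was called for these 2 genes. Slc22a28 measured 3.14, 2.01, 2.32 and 2.47 in WT and 2.49, 2.70, 2.21 and 2.37 in dKO males. Slc22a30 measured 4.83, 3.74, 3.95 and 4.2 in WT and 3.84, 4.18, 3.52 and 3.96 in dKO males. The groups overlapped for both genes. The differences were -0.04 ± 0.29 (SE, limma adjusted p = 0.937) and -0.31 ± 0.27 (SE, limma adjusted p = 0.45).

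A sex difference in Slc22a28 and Slc22a30 was thus called in dKO mice and not in WT mice. Female minus male was -3.34 ± 0.29 (SE, limma adjusted p = 7.28e-07) and -3.20 ± 0.27 (SE, adjusted p = 4.05e-07) in treated dKO mice, which is 10.1-fold and 9.17-fold lower in females. In treated WT mice it was -0.27 ± 0.29 (SE, adjusted p = 0.667) and -0.28 ± 0.27 (SE, adjusted p = 0.621). The difference between these differences, the interaction of sex and genotype, was -3.07 ± 0.41 for Slc22a28 and -2.92 ± 0.38 for Slc22a30 (SE, limma adjusted p = 0.000692 for each). The genotype difference was called in males for Slc22a26 and in females for Slc22a28 and Slc22a30.

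Without treatment, dKO females already had lower signal at the probes of both genes. Untreated WT females measured 2.66, 3.62, 2.90 and 3.24 for Slc22a28, and untreated dKO females 1.54, 2.04, 2.19 and 1.97. For Slc22a30 the WT values were 4.24, 4.93, 4.58 and 4.64 and the dKO values 2.91, 3.05, 3.64 and 3.17. The groups did not overlap for either gene. Slc22a28 was lower by 1.17 on the log2 scale with an SE of 0.29 (2.25-fold, limma adjusted p = 0.0144) and Slc22a30 by 1.41 with an SE of 0.27 (2.65-fold, limma adjusted p = 0.00184). Within the 2 slides that held both groups the differences were smaller, at -0.71 to -0.62 for Slc22a28 and -1.20 to -0.94 for Slc22a30. The Slc22a28 call was lost without WT female 2 (-1.0, adjusted p = 0.0521), without dKO female 1 (-1.04, adjusted p = 0.0547) and with slide as a fixed block (-0.97, adjusted p = 0.0827).

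The genotype difference was larger in treated than in untreated females. The interaction of genotype and treatment was -1.94 ± 0.41 for Slc22a28 (SE, limma adjusted p = 0.0117) and -1.82 ± 0.38 for Slc22a30 (SE, adjusted p = 0.0109), and neither was called with position as a covariate (-1.97 and -1.78, adjusted p = 0.422 and 0.433). Treated dKO females lay below untreated dKO females by 2.84 ± 0.29 and 2.51 ± 0.27 on the log2 scale (limma, adjusted p = 2.81e-06 and 3.79e-06), without overlap. In WT females treatment lowered Slc22a28 by 0.89 with an SE of 0.29 (1.86-fold, limma adjusted p = 0.0403). The change of Slc22a30 did not pass, at -0.70 ± 0.27 (SE, adjusted p = 0.08). The Slc22a28 call in WT females was lost without treated female 1, 3 or 4 or untreated female 2, 3 or 4, with values of -0.96 to -0.72 and adjusted p from 0.0502 to 0.13, and with array position as a covariate (-0.93, adjusted p = 0.133).

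Hepatocyte and other markers moved in the same arrays. In treated females 7 of 11 hepatocyte markers were lower in dKO, 8 of 10 bile duct markers and 7 of 8 stellate and fibroblast markers were higher. Without treatment these counts were 1 lower, 6 higher and 3 higher, and in treated males they were 0 lower, 8 higher with 1 lower (Prom1, -2.78), and 4 higher. Of all tested genes 16.3% were lower and 13.6% higher in treated females, 4.62% and 5.2% without treatment and 10.8% and 14.5% in treated males. In bulk RNA fewer cells of a type and less RNA per cell cannot be told apart. Treated dKO females 2 and 4 had the lowest summed hepatocyte levels, and without both of them Slc22a28 was lower in treated dKO than WT females by 2.83 (adjusted p = 4.64e-05) and Slc22a30 by 2.98 (adjusted p = 1.31e-05). The sex by genotype interactions were then -2.73 for Slc22a26, -2.79 for Slc22a28 and -2.67 for Slc22a30, with adjusted p of 0.00128, 0.00244 and 0.00196. The genotype by treatment interactions were then -1.66 (adjusted p = 0.0689) and -1.57 (adjusted p = 0.0663) for Slc22a28 and Slc22a30 and were no longer called. This setting was chosen after seeing the data.

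**Figure D2:**
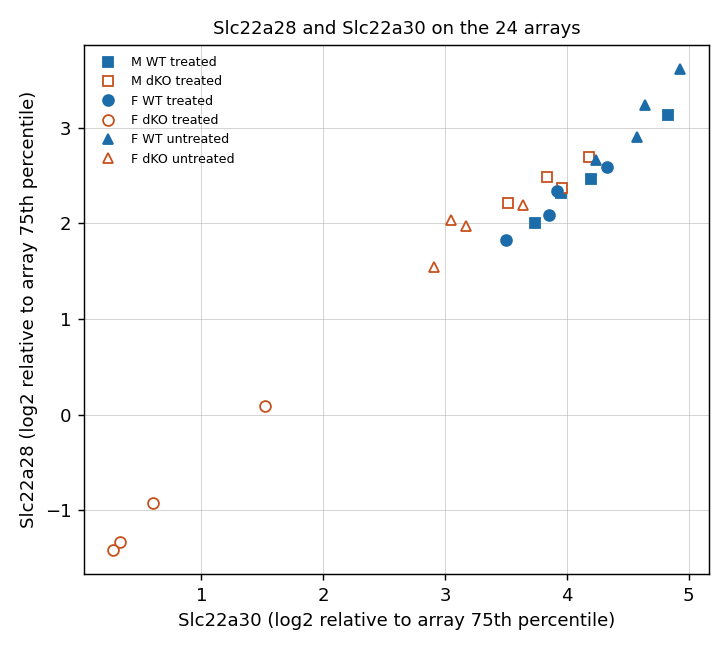
Slc22a28 (vertical) against Slc22a30 (horizontal) on each of the 24 arrays, both as log2 signal over the array's 75th percentile, with a symbol for each group (filled blue for wild type, hollow orange for dKO). The points follow 1 line over all 6 groups, with the 4 treated dKO females at its lower end.

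Slc22a28 and Slc22a30 moved together array by array. The difference between their 2 log2 values averaged -1.52 with an SD of 0.20 and a range of -1.77 to -1.0 over 24 arrays, and Pearson's r was 0.99. The genes most like them over the 24 arrays were each other and 2 array transcripts of the same region, NAP102504-1 (r = 0.99) at chr19:8281831-8281890 and TC1700814 (r = 0.97), the probe that shares 37 bases on the other strand. The difference between treated dKO and WT females was -3.03 for NAP102504-1 and -2.82 for TC1700814. Slc22a26, though a neighbour in the cluster, had an r of 0.10 with Slc22a28 and 0.04 with Slc22a30. These correlations share arrays and scaling and are given as descriptions.

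The genes most like Slc22a26 were ENSMUST00000120522, whose probe lies at chr19:7855791-7855850 on the same strand and whose r rounded to 1.0, Sult2a2 (r = 0.91) and Hamp2 (r = 0.90). Sult2a2 is a sulfotransferase gene of steroid and bile acid conjugation, and Hamp2 a hepcidin gene. In treated WT mice their female values exceeded the male ones by 4.74 and 3.67 on the log2 scale. In treated males their dKO values exceeded the WT ones by 4.24 and 3.11. Both were picked for their likeness on these same arrays, so these values are a description. A second Sult2a2 probe had means of -3.82 in treated WT males and -3.34 in treated dKO males.

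Slc22a29, the cluster gene between Slc22a28 and Slc22a30, was not among the 9 and differed from both. Its group means were 0.14 in treated WT males, 0.22 in treated WT females, 0.66 in untreated WT females, -0.62 in untreated dKO females, -4.48 in treated dKO males and -2.04 in treated dKO females. It was lower in dKO by 4.62 on the log2 scale in treated males (limma, adjusted p = 2.02e-07, above background on 3 of 4 dKO arrays) and by 2.26 in treated females (adjusted p = 0.000661). Treated dKO females exceeded treated dKO males by 2.44 (adjusted p = 0.0007), the opposite direction to Slc22a28 and Slc22a30, and its sex by genotype interaction was 2.36 (adjusted p = 0.0161).

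Slc22a7 encodes Oat2, an organic anion transporter of the hepatocyte's blood-facing membrane that handles nucleotides, prostaglandins and drugs. Its probe lies at chr17:46569272-46569331. Untreated WT females measured 2.94, 2.05, 3.51 and 2.69, and treated WT females 0.84, 1.32, 1.27 and 1.12, without overlap. Treatment lowered the gene by 1.66 with an SE of 0.54 (3.16-fold, limma adjusted p = 0.0379). The call was kept only without untreated female 2 when 1 array was left out; without each of the other 7 arrays the values were -1.72 to -1.42, with adjusted p from 0.0552 to 0.104. With array position as a covariate it was -1.81 (adjusted p = 0.108).

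Untreated dKO females measured 3.35, 2.29, 0.80 and 2.48 for Slc22a7, and treated dKO females 0.85, -0.13, 1.16 and 0.55. These groups overlapped through untreated replicate 3. The difference was -1.62 ± 0.54 (SE, limma adjusted p = 0.0221). It was not called without untreated dKO female 1 (-1.25, adjusted p = 0.086) or 4 (-1.54, adjusted p = 0.0528), nor without treated dKO female 2 (-1.38, adjusted p = 0.0789), nor with array position as a covariate (-1.38, adjusted p = 0.442).

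Treated males varied more widely in Slc22a7, with -1.22, 1.08, 0.96 and 0.50 in WT and 0.88, 2.26, 0.08 and 1.37 in dKO. Neither the genotype difference in males, 0.82 ± 0.54 (SE, limma adjusted p = 0.294), nor those in treated females (-0.53, adjusted p = 0.491) and untreated females (-0.57, adjusted p = 0.555) passed. The sex difference in treated WT mice did not pass either, at 0.81 (adjusted p = 0.434). Over the 24 arrays the genes most like it were Chd3 (r = 0.85), 2610507B11Rik (r = 0.84) and Plce1 (r = 0.82).

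Slc22a3 encodes Oct3, a polyspecific transporter of organic cations and monoamines, and was dim in all groups. Its probe lies at chr17:12613372-12613431. On the 4 untreated WT female arrays it was -4.05, -2.53, -3.85 and -3.13, all well above background, and on the untreated dKO female arrays -3.87, -4.77, -2.52 and -3.17, of which 3 were. Treated females were below background on all arrays, at -5.33, -7.12, -5.59 and -6.60 in WT and -7.68, -8.17, -7.00 and -8.04 in dKO. Every treated female lay below every untreated female. Measured against the lowest signal that counted as above background, Slc22a3 was at least 3.5-fold lower in treated WT females (limma, adjusted p = 0.000799). In dKO females it was at least 5.57-fold lower with treatment (limma, adjusted p = 8.84e-06). Both folds are bounds under the main processing only. Over 12 other settings the log2 difference was -2.85 to -0.29 in WT and -4.31 to -1.06 in dKO females. The gene passed the filter mainly through untreated females, so its being lower with treatment is partly set by the filter. With normexp background correction the WT call was lost (-0.29, adjusted p = 0.491), and with array position as a covariate the dKO call (-3.68, adjusted p = 0.0511).

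Treated males measured -5.96, -5.00, -4.47 and -4.70 for Slc22a3 in WT, with replicates 3 and 4 above background, and -7.38, -6.22, -7.25 and -7.21 in dKO, with none. It was at least 1.14-fold lower in dKO males (limma, adjusted p = 0.00497), a call lost with normexp (-0.43, adjusted p = 0.413) and with array position as a covariate (-2.20, adjusted p = 0.478). In treated females the fit also called it lower in dKO (adjusted p = 0.0206), but both groups were below background, so no fold is given. That call was lost without treated WT female 1 or 3 or treated dKO female 2 or 4 (adjusted p from 0.0553 to 0.0773), and with position as a covariate (-1.44, adjusted p = 0.697). Its most alike genes were Josd2 (r = 0.91), Bckdhb (r = 0.90) and Zdhhc5 (r = 0.90).

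**Figure D3:**
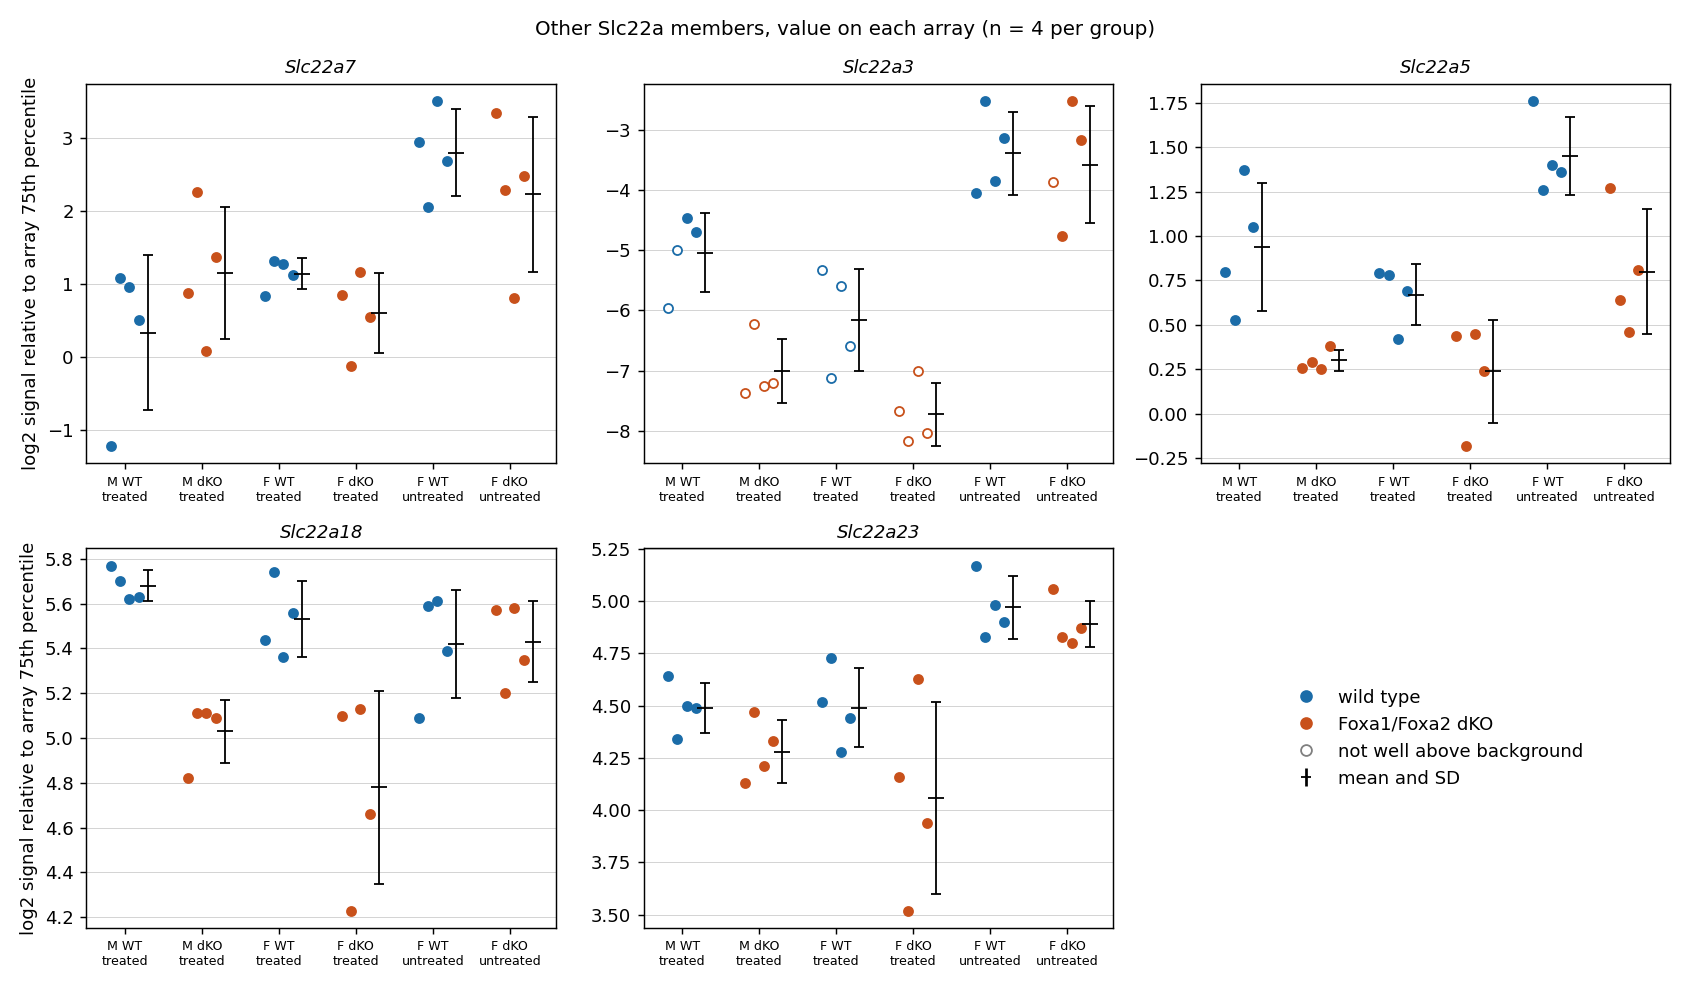
Slc22a7, Slc22a3, Slc22a5, Slc22a18 and Slc22a23 on each of the 24 arrays, as log2 signal over the array's 75th percentile, by group. Points are arrays (hollow where not well above background) and bars give the mean and SD of 4 arrays. Slc22a3 is hollow on all 8 treated female arrays.

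Slc22a5 encodes Octn2, the sodium-dependent carnitine transporter that supplies cells with the carrier of long-chain fatty acids into mitochondria. Its brighter probe lies at chr11:53678550-53678609 and the other at chr11:53679058-53679117. The values were 1.76, 1.26, 1.40 and 1.36 in untreated WT females, and 0.79, 0.78, 0.42 and 0.69 in treated WT females. The groups did not overlap, and treatment lowered the gene by 0.78 with an SE of 0.18 (1.71-fold, limma adjusted p = 0.00752).

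Untreated dKO females measured 1.27, 0.64, 0.46 and 0.81 for Slc22a5, with replicate 1 reaching the WT range, and treated dKO females 0.44, -0.18, 0.45 and 0.24. In dKO females the treatment difference was -0.56 ± 0.18 (SE, limma adjusted p = 0.0224), lost without untreated dKO female 1 (-0.40, adjusted p = 0.095) or treated dKO female 2 (-0.42, adjusted p = 0.0968), and with array position as a covariate (-0.51, adjusted p = 0.371). In untreated females the genotype difference was -0.65 ± 0.18 (SE, limma adjusted p = 0.0302). That call was lost in 6 of 8 fits that left out 1 array, WT female 1, 3 or 4 or dKO female 2, 3 or 4, with values of -0.68 to -0.54 and adjusted p from 0.0507 to 0.109, and with position as a covariate (-0.46, adjusted p = 0.221).

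Treated males separated by genotype, with 0.80, 0.53, 1.37 and 1.05 in WT and 0.26, 0.29, 0.25 and 0.38 in dKO. Slc22a5 was lower in dKO males by 0.64 with an SE of 0.18 (1.56-fold, limma adjusted p = 0.0141), a call lost without WT male 3 (-0.50, adjusted p = 0.0638). With array position as a covariate the difference was -0.06 (adjusted p = 0.97). The second probe gave -0.75 (adjusted p = 0.00365), but it shares a 33-base run with the probe of Slc22a21, a neighbouring carnitine transporter gene, at chr11:53764508-53764567. In treated females the genotype difference did not pass, at -0.43 ± 0.18 (SE, adjusted p = 0.0841). The genes most like Slc22a5 were Slc22a21 (r = 0.97), Abcd3 (r = 0.92), a peroxisomal fatty acid transporter gene, and the array transcript NAP059380-1 (r = 0.92).

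The genes of carnitine synthesis and shuttle are a list of 9. Of these, 6 fell with treatment in WT females and 5 in dKO females, where 8.73% and 21.4% of all tested genes were lower, and none rose. Cpt1a, the enzyme that attaches long-chain acyl groups to carnitine at the mitochondrial surface, fell by 1.19 in WT females (limma, adjusted p = 0.00171). Slc25a20, the mitochondrial carnitine carrier, fell by 1.13 in WT females (adjusted p = 0.000163) and by 0.70 in dKO females (adjusted p = 0.00303). Bbox1, the last enzyme of carnitine synthesis, fell by 0.58 in WT (adjusted p = 0.0345) and 0.92 in dKO females (adjusted p = 0.000785). Loss of Foxa1 and Foxa2 lowered 1 of 9 in untreated females, 3 of 9 in treated females and 3 of 9 in treated males, against 4.62%, 16.3% and 10.8% of all tested genes. Crat, the short-chain acyltransferase, rose by 0.73 in treated dKO females (adjusted p = 0.0245), and was higher in females than males in treated dKO mice by 1.17 (adjusted p = 0.00206).

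Slc22a18 encodes an orphan transporter and belongs to an imprinted domain of distal chromosome 7, in which the maternal copy is expressed. Its brighter probe lies at chr7:150685129-150685188 and the other at chr7:150662151-150662210. Treated WT males measured 5.77, 5.70, 5.62 and 5.63 and treated dKO males 4.82, 5.11, 5.11 and 5.09. Treated WT females measured 5.44, 5.74, 5.36 and 5.56 and treated dKO females 5.10, 4.23, 5.13 and 4.66. Neither sex overlapped between genotypes. Slc22a18 was lower in dKO by 0.65 with an SE of 0.16 in males (1.57-fold, limma adjusted p = 0.00639) and by 0.75 with an SE of 0.16 in females (1.68-fold, adjusted p = 0.00233). Both calls were lost with array position as a covariate, at -0.33 (adjusted p = 0.807) in males and -0.41 (adjusted p = 0.759) in females, and the call in females also when only the groups compared were fitted (adjusted p = 0.0661).

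Without treatment no genotype difference in Slc22a18 was called. Untreated WT females measured 5.09, 5.59, 5.61 and 5.39 and untreated dKO females 5.57, 5.20, 5.58 and 5.35, with a difference of 0.00 ± 0.16 (SE, limma adjusted p = 0.993). The genotype by treatment interaction was -0.75 ± 0.23 (SE, limma adjusted p = 0.0648) and did not pass. Of 16 fits that left out 1 array it was called in 2, without treated dKO female 1 (-0.86, adjusted p = 0.0379) or 3 (-0.87, adjusted p = 0.0179). Of 13 other settings it was called in 3. It was -0.57 (adjusted p = 0.11) without treated dKO female 2 and -0.41 (adjusted p = 0.292) without treated dKO females 2 and 4. With array position as a covariate it was -0.47 (adjusted p = 0.795). In dKO females treatment lowered the gene by 0.65 with an SE of 0.16 (adjusted p = 0.00475), and in WT females the difference was 0.11 (adjusted p = 0.72). With position as a covariate the former was -0.46 (adjusted p = 0.408). Without treated dKO females 2 and 4, those with the lowest hepatocyte levels, the genotype difference in treated females was -0.41 (adjusted p = 0.0823) and the treatment difference in dKO females -0.31 (adjusted p = 0.161). Its most alike genes were Thnsl2 (r = 0.94), Sec16b (r = 0.93) and Cept1 (r = 0.91).

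Of 10 genes of the imprinted domain around Slc22a18, 2 were higher and 2 lower with loss of Foxa1 and Foxa2 in treated females, and the same counts held in treated males, against 13.6% higher and 16.3% lower of all tested genes in treated females and 14.5% and 10.8% in treated males. Kcnq1, a potassium channel gene, was higher in dKO in untreated females by 0.96, in treated females by 0.91 and in treated males by 1.73 (limma, adjusted p = 0.000479, 0.000315 and 1.83e-07). Phlda2, a growth-restraining gene of the placenta, was at least 12.2-fold higher in treated than untreated dKO females (adjusted p = 4.14e-05). In the same comparison Tspan32 was higher by 1.75 (adjusted p = 0.00353). Osbpl5 was lower by 0.99 in untreated dKO females (adjusted p = 0.000808). In untreated females 1 of 10 was higher and 2 lower, against 5.2% and 4.62% of all tested genes. Treatment raised 3 and lowered 0 in dKO females, against 16.4% and 21.4%, and lowered 1 in WT females, against 8.73%.

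Slc22a23 encodes an orphan member of the family. Its brighter probe lies at chr13:34271547-34271606 and the other at chr13:34271100-34271159. Untreated WT females measured 5.17, 4.83, 4.98 and 4.90 and treated WT females 4.52, 4.73, 4.28 and 4.44, without overlap. Treatment lowered it by 0.48 with an SE of 0.16 (1.39-fold, limma adjusted p = 0.0489). Leaving out 1 array lost this call in 7 of 8 fits (all but treated WT female 2), with values of -0.52 to -0.41 and adjusted p from 0.0575 to 0.15, as did array position as a covariate (-0.65, adjusted p = 0.0571).

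Untreated dKO females measured 5.06, 4.83, 4.80 and 4.87 for Slc22a23 and treated dKO females 4.16, 3.52, 4.63 and 3.94, again without overlap. The difference was -0.83 ± 0.16 (SE, 1.77-fold, limma adjusted p = 0.00079). Without treated dKO female 2 it was -0.64 (adjusted p = 0.00266), and with array position as a covariate -0.67 and not called (adjusted p = 0.213). The genotype difference in treated females was -0.43 ± 0.16 (SE, adjusted p = 0.0536) at the brighter probe and -0.44 (adjusted p = 0.0305) at the other. At the brighter probe it was called without treated WT female 3 (-0.50, adjusted p = 0.0386) or treated dKO female 3 (-0.62, adjusted p = 0.0019). It was -0.25 (adjusted p = 0.241) without treated dKO female 2 and -0.09 (adjusted p = 0.747) without treated dKO females 2 and 4. With array position as a covariate it was -0.02 (adjusted p = 0.991). Treated males measured 4.34 to 4.64 in WT and 4.13 to 4.47 in dKO, and overlapped. Apoc4, Wdfy1 and Abcg8 were most like it (r = 0.95 each).

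Across the 8 measured genes, loss of Foxa1 and Foxa2 lowered 3 and raised 0 in untreated females, where 9.82% of all tested genes were called 4.62% lower and 5.2% higher. The members' median difference was -0.38, against -0.04 for all genes. In treated females 4 of 8 were lower and 0 higher, against 16.3% lower, 13.6% higher and 29.9% called in either direction, with medians of -0.98 and -0.07. The 4 include Slc22a3, which was below background on every array of both groups. They also include Slc22a28 and Slc22a30, whose signals cannot be told apart with certainty. In treated males 3 were lower and 1 higher, against 10.8% lower, 14.5% higher and 25.3% called, with medians of -0.26 and 0.05. Members with no overlap between genotypes numbered 2, 3 and 4 of 8 in these comparisons, where 22.7%, 21.6% and 28.6% of all genes with a value on every array compared had none.

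Sex and treatment gave different counts. In treated WT mice 1 of 8, Slc22a26, was higher in females and 0 lower, against 2.87% higher, 3.29% lower and 6.17% called. In treated dKO mice 2 of 8 were lower in females and 0 higher, against 12.4% lower, 8.06% higher and 20.4% called. Treatment lowered 5 of 8 in WT females (8.73% of all genes lower, 8.49% higher, 17.2% called) and 7 of 8 in dKO females (21.4% lower, 16.4% higher, 37.9% called), and raised 0 in either. Both counts include Slc22a3, which was below background on every treated female array. It was above background on 4 untreated WT female, 3 untreated dKO female and 2 treated WT male arrays. Its place among the lowered members is thus partly set by the filter. The members' median treatment differences were -0.74 and -1.22, against -0.06 and -0.07 for all genes. The sex by genotype interaction was called for 3 of 8, all negative, where 12.5% of all genes were called, 7.23% negative and 5.25% positive. The genotype by treatment interaction was called for 2 of 8, where 5.19% were called, 2.67% negative and 2.52% positive. The members are near copies of each other in part, so these counts are not counts of independent genes.

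**Figure D4:**
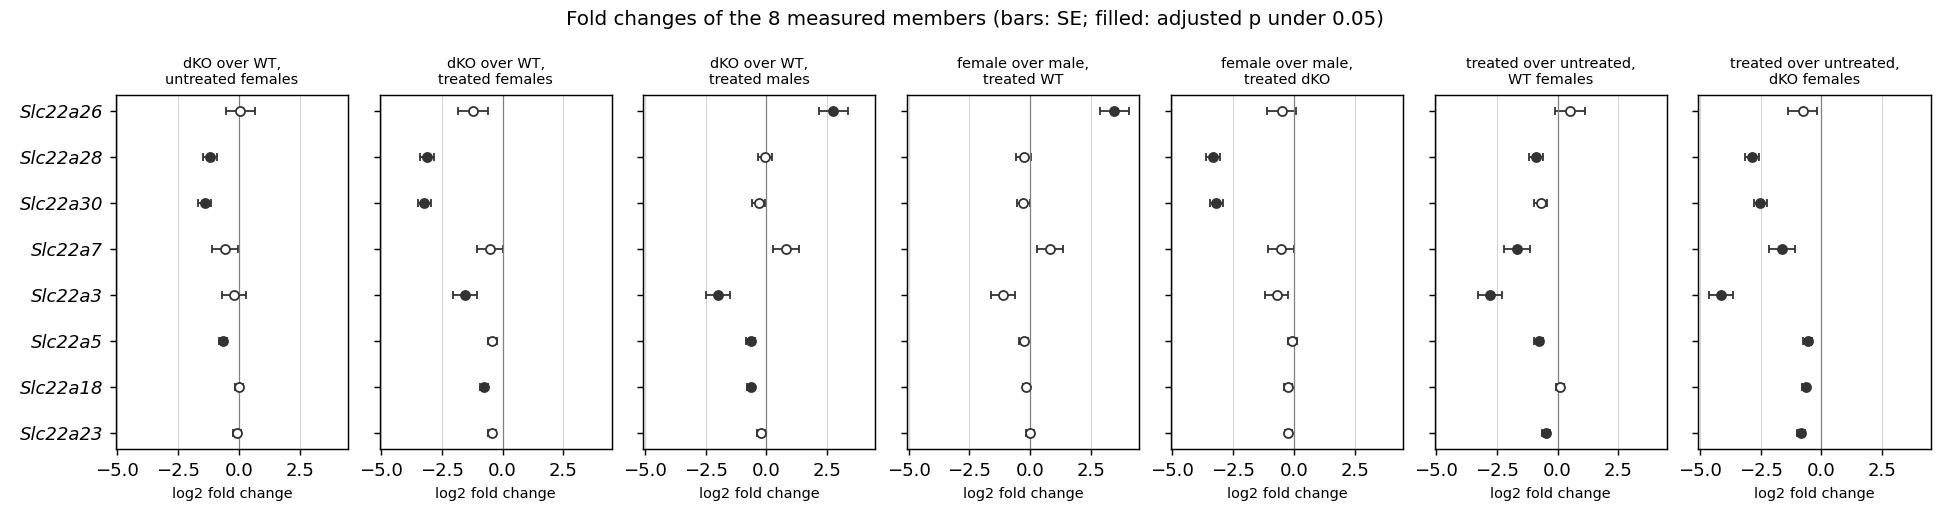
Log2 differences of the 8 measured members in the 7 comparisons between 2 groups, with SE bars; filled points have an adjusted p under 0.05, and Slc22a3 is plotted as measured also where it was below background. Slc22a26 lies to the positive side for sex in treated wild type and genotype in treated males, and Slc22a28 and Slc22a30 to the negative side in the comparisons that hold treated dKO females.

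Of 16 other Slc22 genes, 12 were tested. Loss of both factors lowered 2 and raised 1 without treatment, where 4.62% of all tested genes were lower and 5.2% higher. It lowered 4 and raised 0 in treated females, against 16.3% and 13.6% of all tested genes. The same counts held in treated males, against 10.8% and 14.5%. By sex 0 of 12 differed in treated WT mice, where 6.17% of all tested genes were called. Slc22a4, the ergothioneine transporter gene, was lower in dKO by 2.07 in treated females (limma, adjusted p = 0.000661) and 1.34 in treated males (adjusted p = 0.0154). Slc22a15 was the gene that was higher in untreated dKO females, by 0.65 (adjusted p = 0.029). Treatment lowered 1 of the 12 in WT females, against 8.73% of all tested genes. In dKO females it lowered 3 and raised 1, against 21.4% and 16.4%. In treated dKO mice 1 of 12, Slc22a29, was higher in females, against 8.06% of all tested genes.

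Of 6 genes in the imprinted region of Slc22a3 and Igf2r, 5 were tested. Plg, the plasminogen gene, was lower in treated dKO than WT females (-1.06, limma adjusted p = 0.0275), and Igf2r was lower in treated dKO than WT males (-0.62, adjusted p = 0.00199). None of the 5 passed for sex or treatment. Of all tested genes, 6.17% and 20.4% were called for sex in WT and dKO mice. For treatment in WT and dKO females the shares were 17.2% and 37.9%.

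Efflux transporters move organic ions back out of the hepatocyte, and 7 of 8 listed genes were tested. Loss of both factors changed 0 of 7 in untreated females, where 9.82% of all tested genes were called. It raised 1 and lowered 2 in treated females, against 13.6% and 16.3% of all tested genes. In treated males it lowered 4, against 10.8%. Abcc4, a basolateral anion exporter, rose with treatment by 2.34 in WT females (limma, adjusted p = 0.000958) and by 3.08 in dKO females (adjusted p = 3.98e-05). In treated males it was lower in dKO than WT by 3.63 (adjusted p = 3.02e-06), and its sex by genotype interaction was 3.62 (adjusted p = 0.00121). Abcb1b, a drug exporter gene, fell by 1.09 with treatment in WT females (adjusted p = 2.69e-05), and Slc47a1, a proton-coupled cation exporter, by 1.0 in dKO females (adjusted p = 0.00183). Abcg2, the breast cancer resistance protein gene, was lower in females than males of the treated WT groups by 0.71 (adjusted p = 0.014). In that comparison 2 of 7 were lower, against 3.29% of all tested genes. In treated dKO mice 1 was higher and 1 lower in females, against 8.06% and 12.4%. Treatment raised 1 and lowered 1 in WT females, where 8.49% of all tested genes were higher and 8.73% lower. It raised 1 and lowered 4 in dKO females, against 16.4% and 21.4%.

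Of 10 regulators of hepatic organic ion transporters, 2 were lower in dKO without treatment, 3 in treated females and 2 in treated males. In treated males 1 was higher. The list holds the deleted genes Foxa1 and Foxa2, so their own lower levels are set by the design. Of all tested genes 4.62%, 16.3% and 10.8% were lower in these comparisons, and 14.5% were higher in treated males. Cux2, a female-specific repressor of the liver, was above background on 0 of 4 treated WT male arrays and 4 of 4 treated WT female arrays. It was at least 39-fold higher in females (limma, adjusted p = 8.09e-07), and higher in females by 4.58 in treated dKO mice (adjusted p = 3.98e-05). Treated dKO males had Cux2 at -5.22 ± 1.06 (SD, n = 4), and their Slc22a26 was within the range of females. Any link between the levels of these genes was not tested. Ghr, the growth hormone receptor gene, was lower in treated dKO than WT females by 1.40 (adjusted p = 0.000179), with a sex by genotype interaction of -1.24 (adjusted p = 0.0171). Treatment lowered 1 of 10 in WT and 7 of 10 in dKO females, where 8.73% and 21.4% of all tested genes were lower. In treated dKO mice 1 was higher and 5 lower in females, against 8.06% and 12.4% of all tested genes.

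Other cell types were followed by their markers. Macrophage markers were higher in dKO for 2 of 7 in untreated and 2 of 7 in treated females and 0 of 7 in treated males. Of all tested genes 5.2%, 13.6% and 14.5% were higher in these comparisons. Endothelial markers were lower for 3 of 6 in treated females and 1 of 6 in treated males, against 16.3% and 10.8% of all tested genes. In untreated females 0 of 6 were called, against 9.82%. Of 6 kidney proximal tubule markers 3 were tested, and their summed level was at most -0.27 on any array. In each treated comparison 2 of them were higher in dKO, against 13.6% of all tested genes in females and 14.5% in males. Stellate and fibroblast markers summed to 4.99 to 6.29 in WT groups, 6.33 to 6.81 in untreated dKO females, 6.89 to 7.07 in treated dKO males and 6.85 to 7.56 in treated dKO females.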

How the data were processed

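RNA of 24 mouse liver samples was amplified (WT-Ovation Pico), labelled with Cy3 and hybridised to 1-colour Agilent 4x44K arrays, on 6 slides of 4, per the labels' protocols. The deposited processed signals, and the mean and background signals of the normexp alternative, are intensities from Feature Extraction, version 10.5.1.1 per the file headers and 9.53 per the submitters' processing notes. Signed folds are other values from the table the authors deposited, and the sources used here give neither its test nor its normalization. The files give probe positions on mm9, and exon and UTR annotation of that build was not used here.

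Outlier and control spots were left out, spots of a probe were averaged (41174 probes), log2 of the processed signal minus the array's 75th percentile (435 to 960) was taken, and probes well above background on at least 4 arrays were kept (28048). The brightest probe stood for its gene. No spot was saturated. limma 3.58.1 in R 4.3.3 with data.table (1.17.8) fitted 6 group means over 24 arrays, with Benjamini-Hochberg adjustment over 19037 genes in each of 9 comparisons, at 0.05, and was tested on simulated data. An "at least" fold sets the brighter group's mean against, per array of the dimmer group, the higher of the probe's own value and the lowest signal of probes well above background. It is a bound under the main processing only. The number of arrays limits the precision. Treated dKO females were all at position 4 of their slides, and treated WT arrays at positions 1 and 2, so position and group cannot be told apart there.

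Members and lists (other Slc22 genes, carnitine, efflux, imprinted neighbours, regulators, cell types, Y-linked genes and Xist) were chosen with earlier results of these data known. Named genes were the members, up to 4 called genes with the largest differences in each list, and the 3 genes most correlated with each member over 24 arrays. A result on 1 gene that this rule names is not reported here. Sequences came from the array files and from RefSeq (GRCm38.p6), aligned with Biopython 1.88. Figures used Python 3.11.15, matplotlib 3.10.9 and pandas 2.3.3. The alternatives were normexp background (offset 50), quantile and median scaling, no filter or all arrays, the mean of a gene's probes, outlier spots kept, limma's trend and robust options, slide, position and replicate terms, only the groups compared, and each array left out.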

Additional observations from a re-analysis of the deposited data

Results flagged for a closer look

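Of the members' values, 2 stood far from the other 3 of their group by Dixon's gap test, over 48 groups examined, where chance marks about 1 in 20 groups. Slc22a3 was -6.22 in treated dKO male 2, the next value being -7.21 (gap share 0.857), on arrays where it was not above background. Slc22a18 was 4.82 in treated dKO male 1, the next being 5.09 (gap share 0.922).

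The genotype effect differed between sexes, by limma's interaction test, for Slc22a26 (-3.96), Slc22a28 (-3.07) and Slc22a30 (-2.92), and between treated and untreated females for Slc22a28 (-1.94) and Slc22a30 (-1.82). Their errors and adjusted p are given with each gene above.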

How the results depend on the processing

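No value of a member that was called changed its sign under any setting run. Over single values of members in 9 comparisons, alternatives kept the side of the threshold in 873 cases, lost a call in 45 and gained one in 9; leaving out 1 array kept it in 660, lost it in 38 and gained it in 6. Leaving out treated dKO females 2 and 4, chosen after seeing the data, kept it in 33 and lost it in 7. The sex by genotype interactions of Slc22a26, Slc22a28 and Slc22a30 and the sex differences of Slc22a26 in WT and of Slc22a28 and Slc22a30 in dKO mice were called under all settings.

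The number of members called moved as follows; the cause was not tested. With array position as a covariate it was 1 (from 4) for genotype in treated females, 0 (from 4) in treated males, 2 (from 5) and 2 (from 7) for treatment in WT and dKO females, and 0 (from 2) for genotype by treatment. Slc22a28 was then -3.32 (adjusted p = 0.0644) for genotype in treated females and Slc22a26 3.23 (adjusted p = 0.361) in treated males. With only the groups compared it was 2 in treated females and 4 for treatment in dKO females. Slide as a fixed block gave 1 (from 3) in untreated females and 2 for treatment in WT females, where normexp gave 3, quantile scaling 2 and no filter 2. Without treated dKO females 2 and 4 it was 2, 4 and 0 for genotype in treated females, treatment in dKO females and genotype by treatment. Leaving out 1 array gave 2 to 2, 3 to 6 and 3 to 4 for the genotype comparisons (untreated, treated female, treated male), 1 to 1 and 2 to 3 for sex in WT and dKO mice, 2 to 4 and 5 to 7 for treatment in WT and dKO females, and 3 to 3 and 2 to 3 for the interactions.

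Over all genes, called counts moved by over 1.5 times as follows (main counts 1869, 5689 and 4815 for the genotype comparisons in the same order, 1174 and 3887 for sex in WT and dKO mice, 3278 and 7207 for treatment in WT and dKO females, 2377 and 988 for the interactions of genotype with sex and with treatment). Position gave 972, 22, 139, 484, 1220, 1970, 269, 700 and 4 in that order. Normexp gave 724 for genotype in untreated females, 2568 in treated males, 516 and 2165 for sex, 1856 for treatment in WT females and 1236 and 425 for the interactions. Fitting only the groups compared gave 2835 and 2080 for genotype in untreated and treated females, 1104 for sex in dKO mice, 4307 for treatment in dKO females and 1387 and 478 for the interactions. Slide as a fixed block gave 1183 for genotype in untreated females, and no filter 1556 and 564 for the interactions. Without treated dKO females 2 and 4 the counts were 2233 for genotype in treated females, 1025 for sex in dKO mice, 3148 for treatment in dKO females and 731 and 336 for the interactions. Leaving out 1 array gave 1186 (without untreated WT female 1) and 1130 (untreated dKO female 4) for genotype in untreated females. It gave 700 (treated WT male 4), 733 and 721 (treated WT females 1 and 4) for sex in WT mice and 1938 (treated WT female 3) for treatment in WT females. Without treated dKO females 2, 3 and 4 in turn, sex in dKO mice gave 2324, 5989 and 2292. Without treated dKO females 3 and 4, sex by genotype gave 4419 and 1468 and genotype by treatment 2402 and 465. The last also gave 577 and 604 without treated WT females 1 and 4, 639 and 583 without untreated WT females 1 and 4, and 554 without untreated dKO female 4. Normexp changed the share of calls that were higher from 45.5% to 26% for genotype in treated females. Median centring changed it from 57.2% to 37.3% for genotype in treated males, from 39.5% to 50.3% for sex in dKO mice, from 49.3% to 37.8% for treatment in WT females and from 42.1% to 59.1% for sex by genotype. The median of all genes shifted by at most 0.16 under these scalings.

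The replicate numbers do not pair the samples: residuals of same-numbered arrays correlated from -0.35 to 0.34 (mean -0.02). With the replicate block 2 members were called for treatment in WT females, where Slc22a28 was -0.89 (adjusted p = 0.0616), Slc22a7 -1.66 (adjusted p = 0.0603) and Slc22a23 -0.48 (adjusted p = 0.0653).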
